A study of Mus musculus with 8 samples.

Results

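The genes of the smooth muscle contractile apparatus that myofibroblasts also use were followed in cultured fibro/adipogenic progenitors (FAPs) of dystrophic muscle. The 10 genes, taken by name for their role in contraction and not by a threshold on these data, were *Acta2*, *Actg2*, *Tagln*, *Cnn1*, *Cnn2*, *Tpm1*, *Tpm2*, *Cald1*, *Myh11* and *Myl9*, out of 31053 genes in the count files. Earlier results of these data were known when the genes were chosen. All 10 had enough counts to be among the 10181 genes tested. FAPs are mesenchymal cells of skeletal muscle that can give rise to fat cells or to fibroblasts, and here they came from hind limb muscles of *mdx* mice of the strain C57BL/10ScSn-Dmdmdx/J, aged 45 days, which lack functional dystrophin. Both groups were depleted of CD45+ and CD31+ cells and sorted as ITGA7- and SCA-1+, and they differed in the amount of SCA-1 on the surface, high in SCA1-High-FAPs and low in SCA1-Low-FAPs. Each group had 4 samples, all grown for 5 days in growth medium with no inducer of fat or fibroblast differentiation, and the submitters took SCA1-Low-FAPs as the control. In the paper, fold changes are given for SCA1-Low-FAPs relative to SCA1-High-FAPs. The samples were described as biological replicates from 4 mice, but equal replicate numbers were not said to mean the same mouse.

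In smooth muscle and in myofibroblasts, actin filaments slide along myosin II when the regulatory light chain of myosin is phosphorylated, and tropomyosin, caldesmon, calponin and transgelin lie along the filament and set how it meets myosin. Most of these genes are known targets of serum response factor (SRF), which binds a DNA element called the CArG box and works with coactivators of the myocardin family, among which the MRTFs enter the nucleus when monomeric actin runs low. Smooth muscle alpha-actin, the product of *Acta2*, is the usual marker of the myofibroblast, the contractile fibroblast of scars and fibrotic muscle.

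The stretches before the start sites are shown first because elements that control genes of this kind are known to lie there. RefSeq promoter windows of build GRCm38.p6, 250 bases before to 50 after the start, were matched for 7 of the 10 genes, as 8 windows, with 2 for *Cald1*. *Tagln*, *Myh11* and *Actg2* were not matched. A CArG box was searched as CC and GG around a core of 6 bases that are each A or T. A CArG-like element had 1 G or C in that core, and both read alike on either strand, so that each was counted once. The MCAT element, known to bind TEAD factors, was CATTCC on either strand. The pieces below run 5′ to 3′ along the gene's strand with the motif in capitals, and a capital GGAATG is CATTCC read on the other strand.
Acta2, chr19:34255504-34255529, minus strand, MCAT: gcagaacagaGGAATGcagtggaaga
Acta2, chr19:34255438-34255467, minus strand, CArG-like: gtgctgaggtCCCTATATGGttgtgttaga
Acta2, chr19:34255388-34255417, minus strand, CArG-like: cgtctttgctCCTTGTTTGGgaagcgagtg
Cnn2, chr10:79988534-79988563, plus strand, CArG box: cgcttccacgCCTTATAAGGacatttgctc
Tpm1, chr9:67049254-67049279, minus strand, MCAT: gctgtcctaaGGAATGcggtcgcccc
Cald1, chr6:34598341-34598366, plus strand, MCAT: gcatgcctagGGAATGacaggcatct
Myl9, chr2:156775293-156775384, plus strand, CArG box then CArG-like: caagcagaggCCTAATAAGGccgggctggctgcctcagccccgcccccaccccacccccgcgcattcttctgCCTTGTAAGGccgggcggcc

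A CArG box was thus found for *Cnn2* and *Myl9*, while 1.63% of all 32851 windows held one. CArG-like elements lay before *Acta2* and *Myl9* and were present in 8.5% of all windows. The MCAT element was found for *Acta2*, *Tpm1* and *Cald1*, against 14.7% of all windows. No match overlapped another in these genes. *Cnn1* and *Tpm2* and the other *Cald1* window had none of these letters. The *Acta2* and *Tpm1* pieces also lie inside exons that GENCODE M21 annotates for longer transcripts of the same genes. These matches describe the sequence and no binding was measured.

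**Figure D1:**
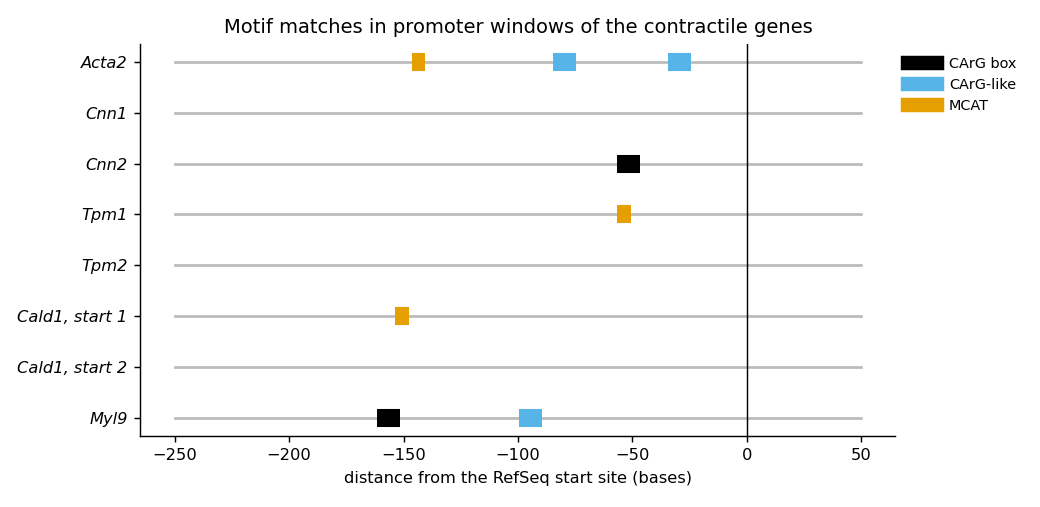
Positions of the motif matches in the 8 promoter windows, as the distance in bases from the RefSeq start site (vertical line), with CArG boxes in black, CArG-like elements in blue and MCAT elements in orange. All matches lie before the start site, between base -161 and base -25, and 3 windows are empty.

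Total RNA was converted into 3′ mRNA libraries, which read near the end of the transcript, so a count stands for the gene and does not tell which of its isoforms was made. This matters for *Tpm1* and *Cald1*, for which GENCODE M21 lists 21 and 18 transcripts. Gene counts summed to 1880561 to 3985656 per sample. Of all entries made in the counting, 47.9% to 52.5% were assigned to no gene, mostly as alignments to several places (37.5% to 43.3%). Unaligned reads are not among these entries, and whether 1 read could make several is not given, so these are not shares of all reads. CPM below are counts relative to the library size, corrected with TMM factors, and 3 counts, the floor used here, correspond to 0.753 to 1.6 CPM of the uncorrected library totals. The summed levels of marker lists below are also CPM of the uncorrected totals, since they take in genes with too few counts to be tested. Reads of one molecule cannot be told apart from PCR copies, so this floor covers counting error only. Differences are log2 fold changes with their standard error (SE), positive where SCA1-Low-FAPs were higher, tested with edgeR's quasi-likelihood test on all 8 samples and adjusted over all tested genes with the Benjamini-Hochberg method. A gene was called when the adjusted *p*-value was under 0.05 and the log2 fold change beyond 0.5 in size. As nothing says how separate the cultures were beyond the 4 mice, *p*-values measure the spread between these samples.

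All 10 contractile genes had a higher mean in SCA1-Low-FAPs, and 8 of them were called, whereas 3.32% of all tested genes were called in that direction and 7.68% in either. As the genes were chosen with earlier results of these data known, this contrast is a description. *Cnn2* and *Myl9* were not called. In 8 of the 10 genes every SCA1-Low-FAPs sample lay above every SCA1-High-FAPs sample, which held for 6.67% of all tested genes, and the exceptions were *Tagln* and *Myl9*. The median log2 fold change of the 10 genes was 1.23, from 0.72 for *Cnn2* to 2.24 for *Actg2*, against 0.00 over all tested genes. Together the 10 genes took 0.374% to 0.624% of the gene counts in SCA1-High-FAPs and 0.718% to 1.11% in SCA1-Low-FAPs. These are bulk samples, in which fewer cells of a contractile type and less RNA per cell cannot be told apart.

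**Figure D2:**
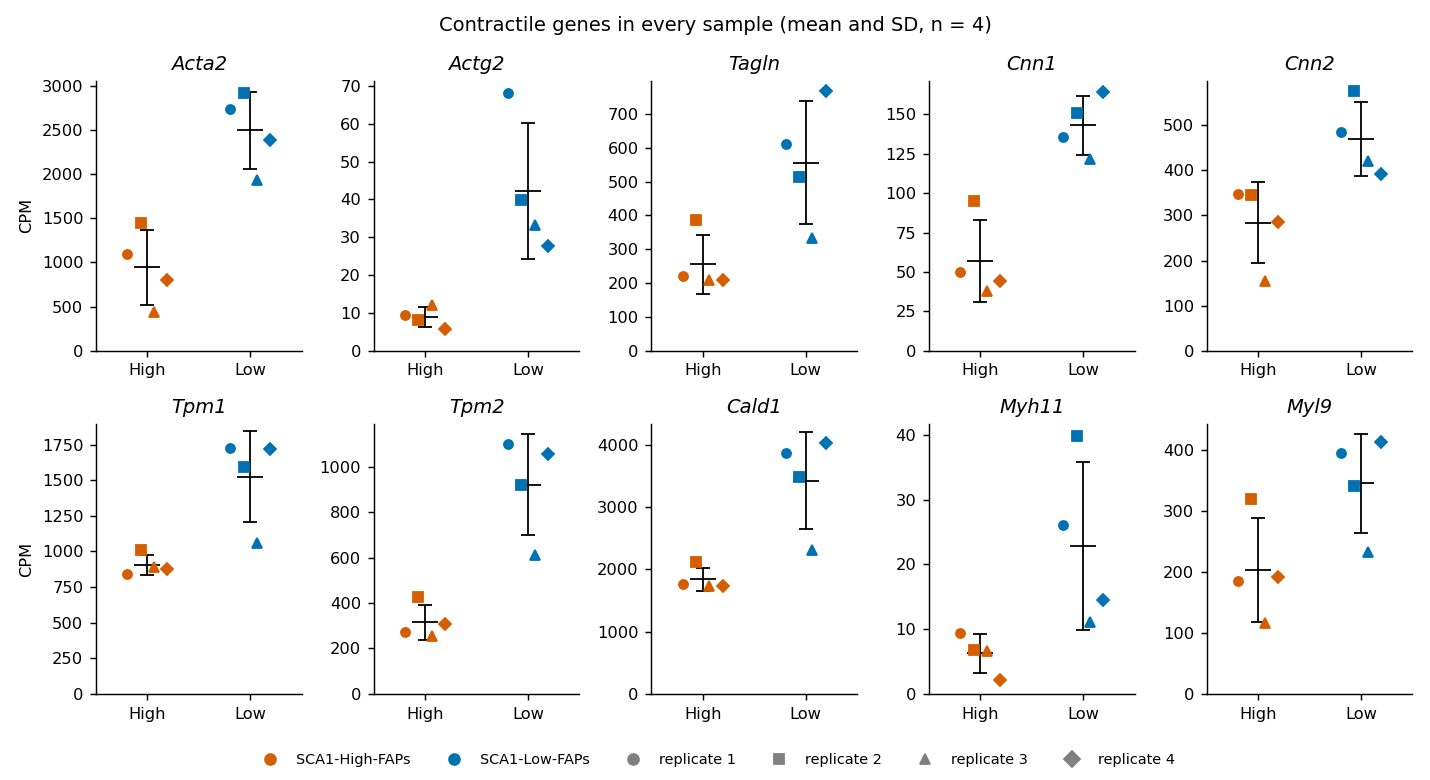
CPM of the 10 contractile genes in every sample, one panel per gene with its own axis from 0, for SCA1-High-FAPs (orange) and SCA1-Low-FAPs (blue). Symbols mark the replicate number, and the line and bars give mean and SD of 4 samples. The states do not overlap except for *Tagln* and *Myl9*, and the triangle of SCA1-Low-FAPs replicate 3 is the lowest of its state in 8 panels.

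*Acta2* (ENSMUSG00000035783, chr19:34241090-34255590, minus strand of GRCm38) encodes smooth muscle alpha-actin. Its CPM in replicates 1 to 4 of SCA1-High-FAPs was 1090, 1446, 442 and 805, and in SCA1-Low-FAPs it was 2739, 2924, 1939 and 2385. The lowest SCA1-Low-FAPs sample, replicate 3, was above the highest SCA1-High-FAPs sample, and among the latter replicate 3 was far below replicate 2. The means were 946 ± 426 and 2497 ± 434 CPM (SD, n = 4), a 2.64-fold difference (log2 fold change 1.40, SE 0.31, adjusted *p* = 0.0213 by edgeR). Its direction was kept with each sample left out in turn (1.16 to 1.69), but the call was lost without replicate 1 or 4 of SCA1-High-FAPs (adjusted *p* = 0.0578 and 0.0593) and without replicate 1, 2 or 4 of SCA1-Low-FAPs (0.0583, 0.0559 and 0.0731), all by edgeR.

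*Actg2* (ENSMUSG00000059430, chr6:83512905-83536265, minus strand) encodes smooth muscle gamma-actin, typical of the gut and other visceral muscle. It had the largest log2 fold change of the 10 genes, on few counts, namely 20, 18, 29 and 16 reads in SCA1-High-FAPs and 141, 73, 105 and 105 in SCA1-Low-FAPs. In CPM these were 9.42, 8.14, 12.1 and 5.87 against 68.2, 39.7, 33.3 and 27.7. The states were well apart, and replicate 1 stood highest among SCA1-Low-FAPs. The difference was 4.72-fold (log2 fold change 2.24, SE 0.34, adjusted *p* = 0.000924 by edgeR), and it was called in 8 of 8 fits with a sample left out.

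Among the actins that are not specific to smooth muscle, *Actb*, the cytoplasmic beta-actin, was also called higher in SCA1-Low-FAPs, at 9088 ± 1136 and 16769 ± 3947 CPM (SD, n = 4, log2 fold change 0.88, SE 0.18, adjusted *p* = 0.00597 by edgeR). *Actg1* and the skeletal alpha-actin *Acta1* had log2 fold changes of 0.96 and 2.03 that did not pass (adjusted *p* = 0.139 and 0.0547 by edgeR), so that 1 of the 3 other actins tested was called by edgeR, against 2 by DESeq2, and the cardiac *Actc1*, with 0 to 5 counts, was not tested. Counts of *Actg1* ran only from 18 to 150, and 44.5% of the 50-base stretches in the last 300 bases of its transcripts also occur in other genes, where reads would align to several places. The share of *Acta2* and *Actg2* in the counts of the 6 actin genes was 10.96%, 11.9%, 5.08% and 8.96% in replicates 1 to 4 of SCA1-High-FAPs and 13.48%, 14.16%, 15.12% and 10.69% in SCA1-Low-FAPs. The means were 9.23% ± 3.02 and 13.36% ± 1.91 (SD, n = 4). The ranges overlapped, as replicate 4 of SCA1-Low-FAPs was below replicates 1 and 2 of SCA1-High-FAPs. Of the same stretches of *Actb*, 12.4% also occur in other genes. *Actg1* and *Actb* reads that align to several places are missing from the total, so this is a share of unique counts and not of actin mRNA.

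*Tagln* (ENSMUSG00000032085, chr9:45929619-45936058, minus strand) encodes transgelin, also known as SM22-alpha, an early marker of smooth muscle that bundles actin. Its CPM was 220, 386, 208 and 208 in SCA1-High-FAPs and 610, 512, 332 and 767 in SCA1-Low-FAPs. The states overlapped, since replicate 2 of SCA1-High-FAPs was above replicate 3 of SCA1-Low-FAPs. The difference was 2.18-fold (log2 fold change 1.12, SE 0.26, adjusted *p* = 0.0221 by edgeR). The call was lost without replicate 1, 3 or 4 of SCA1-High-FAPs (adjusted *p* = 0.0735, 0.0812 and 0.0626) and without replicate 1 or 4 of SCA1-Low-FAPs (0.0668 and 0.0582), all by edgeR, while the log2 fold change stayed between 0.92 and 1.40. *Tagln* shares its end with genes on the opposite strand, *Pcsk7* and *Gm48529*, so that 52.2% of the 50-base stretches in the last 300 bases of its transcripts also lie in another gene, and the strand setting of the counting is not given in the sources used here. The counts of *Pcsk7* were 5 to 76 and those of *Gm48529* 0 to 16, beside 467 to 2906 for *Tagln*, and how far reads moved between these genes was not tested. For the other 9 contractile genes, no 50-base stretch of the last 300 bases of their transcripts occurs in another gene.

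The calponins bind actin and hold back the ATPase of myosin. *Cnn1* (ENSMUSG00000001349, chr9:22099216-22109630, plus strand), the form of differentiated smooth muscle, had 49.9, 94.9, 38.0 and 44.4 CPM in SCA1-High-FAPs and 135, 151, 121 and 164 in SCA1-Low-FAPs. No sample crossed into the range of the other state, although replicate 2 of SCA1-High-FAPs stood above the rest of its state. The difference was 2.52-fold (log2 fold change 1.34, SE 0.24, adjusted *p* = 0.003 by edgeR).

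*Cnn2* (ENSMUSG00000004665, chr10:79988584-79996062, plus strand) is the calponin of many non-muscle cells. It had 348, 346, 156 and 285 CPM in SCA1-High-FAPs and 485, 577, 420 and 393 in SCA1-Low-FAPs. The states did not overlap, yet the spread within SCA1-High-FAPs was wide and the difference did not pass (log2 fold change 0.72, SE 0.22, adjusted *p* = 0.054 by edgeR). The 95% interval of the log2 fold change, taken from the SE and the normal distribution, ran from 0.30 to 1.15. It is narrower than an interval matched to the edgeR test would be. The value lies close to the threshold, and *Cnn2* was called by DESeq2 (adjusted *p* = 0.0193) and without replicate 1 or 2 of SCA1-High-FAPs (adjusted *p* = 0.0485 and 0.0482 by edgeR).

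*Cnn3*, the acidic calponin, did not pass, at 199 ± 51.3 and 196 ± 27.2 CPM (SD, n = 4, log2 fold change -0.02, SE 0.18, adjusted *p* = 0.964 by edgeR). *Cnn1* made up 7.67%, 15.36%, 11.42% and 7.94% of the counts of the 3 calponin genes in SCA1-High-FAPs and 16.9%, 16.62%, 15.61% and 22.09% in SCA1-Low-FAPs. This share did not overlap between the states, with means of 10.6% ± 3.61 and 17.81% ± 2.91 (SD, n = 4), although the highest SCA1-High-FAPs sample, replicate 2, lay just below the lowest SCA1-Low-FAPs sample. For *Cnn3*, 17.2% of the 50-base stretches in the last 300 bases of its transcripts also occur in other genes, so its counts are less certain.

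Tropomyosins lie along the groove of the actin filament. *Tpm2* (ENSMUSG00000028464, chr4:43514711-43523765, minus strand) had 273, 425, 254 and 309 CPM in SCA1-High-FAPs and 1100, 919, 611 and 1055 in SCA1-Low-FAPs. The gap between the states was wide, and replicate 3 of SCA1-Low-FAPs came closest to SCA1-High-FAPs. The difference was 2.92-fold (log2 fold change 1.55, SE 0.20), with the lowest adjusted *p*-value of the 10 genes (0.000472 by edgeR), and it was called in 8 of 8 fits with a sample left out.

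*Tpm1* (ENSMUSG00000032366, chr9:67022590-67049406, minus strand) had 843, 1007, 889 and 880 CPM in SCA1-High-FAPs and 1726, 1596, 1059 and 1723 in SCA1-Low-FAPs. The states did not overlap, but replicate 3 of SCA1-Low-FAPs stood only slightly above SCA1-High-FAPs. The difference was 1.69-fold (log2 fold change 0.75, SE 0.16, adjusted *p* = 0.00801 by edgeR). The tropomyosins *Tpm3* and *Tpm4*, expressed in most cells, were called too, with log2 fold changes of 0.68 and 0.71 (SE 0.16 and 0.14, adjusted *p* = 0.0131 and 0.00439 by edgeR), although 32.9% of the 50-base stretches at the end of *Tpm3* also occur in *Tpm3-rs7* and its counts are less certain. Without replicate 1 of SCA1-Low-FAPs the call of *Tpm3* was lost (adjusted *p* = 0.0624 by edgeR). The share of *Tpm1* and *Tpm2* among the 4 tropomyosin genes overlapped between the states, at 46.78% to 52.07% in SCA1-High-FAPs and 47.05% to 57.7% in SCA1-Low-FAPs, with means of 49.07% ± 2.65 and 53.72% ± 4.84 (SD, n = 4). *Tagln2*, the transgelin of non-muscle cells, had a log2 fold change of 0.78 (SE 0.16, adjusted *p* = 0.00627 by edgeR), so that 3 of the 4 paralogues tested were called, and all 3 were higher in SCA1-Low-FAPs.

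**Figure D3:**
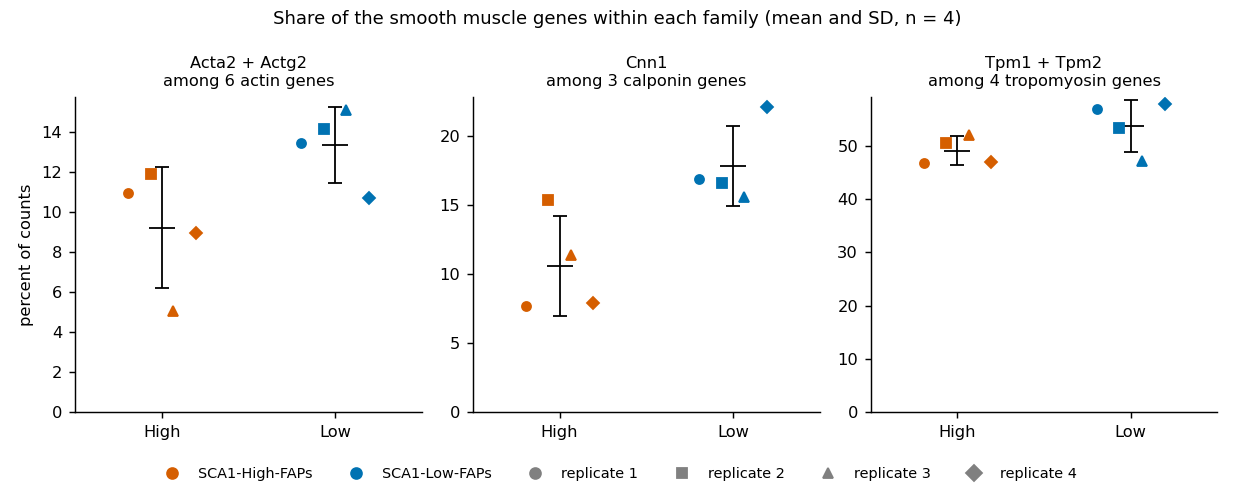
Percent of counts from unique alignments taken by the smooth muscle genes within the actin, calponin and tropomyosin families in every sample. Mean and SD of 4 samples are shown, with symbols for the replicate number. The calponin share separates the states, with 15.36% as the highest SCA1-High-FAPs value and 15.61% as the lowest SCA1-Low-FAPs value, while the other shares overlap.

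*Cald1* (ENSMUSG00000029761, chr6:34598500-34775473, plus strand) encodes caldesmon, which links actin, tropomyosin and myosin and limits their interaction. Its CPM was 1757, 2121, 1733 and 1739 in SCA1-High-FAPs and 3872, 3489, 2310 and 4026 in SCA1-Low-FAPs. Of the SCA1-High-FAPs samples 3 were nearly equal and replicate 2 was higher, yet below replicate 3 of SCA1-Low-FAPs, the lowest of that state. The difference was 1.86-fold (log2 fold change 0.90, SE 0.17, adjusted *p* = 0.00342 by edgeR).

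The motor itself was measured through its heavy and light chains. *Myh11* (ENSMUSG00000018830, chr16:14194535-14291372, minus strand), the smooth muscle myosin heavy chain and the most specific marker of mature smooth muscle among these genes, had 20, 15, 16 and 6 reads in SCA1-High-FAPs and 54, 73, 35 and 55 in SCA1-Low-FAPs. This corresponds to 9.42, 6.78, 6.68 and 2.2 CPM against 26.1, 39.7, 11.1 and 14.5 CPM. The lowest SCA1-Low-FAPs sample, replicate 3, stood just above the highest SCA1-High-FAPs sample.

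The mean level of *Myh11* differed 3.62-fold (log2 fold change 1.85, SE 0.48, adjusted *p* = 0.0232 by edgeR). With so few reads its SE was the largest of the 10 genes, and the call was lost without replicate 4 of SCA1-High-FAPs (adjusted *p* = 0.0537 by edgeR) and without replicate 1 or 2 of SCA1-Low-FAPs (0.074 and 0.1).

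*Myl9* (ENSMUSG00000067818, chr2:156775420-156781658, plus strand) encodes the regulatory light chain of smooth muscle and non-muscle myosin II. It had 185, 319, 116 and 192 CPM in SCA1-High-FAPs and 395, 340, 232 and 412 in SCA1-Low-FAPs. The states overlapped through replicate 2 of SCA1-High-FAPs, and the difference did not pass (log2 fold change 0.76, SE 0.27, adjusted *p* = 0.116 by edgeR). Its 95% interval, taken in the same way as for *Cnn2*, ran from 0.23 to 1.30. *Myl9* was called by DESeq2 (adjusted *p* = 0.0385), without replicate 2 of SCA1-High-FAPs (adjusted *p* = 0.00938 by edgeR) and without replicate 3 of SCA1-Low-FAPs (0.0369).

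The other genes of myosin II and of its control were mostly not called. Of the 14 tested, 1 was called higher in each state and 12 in neither, with a median log2 fold change of 0.27. *Myh9*, the main non-muscle myosin heavy chain, had a log2 fold change of 0.53 (SE 0.15, adjusted *p* = 0.0324 by edgeR), close to the threshold, and passed in 2 of 8 fits with a sample left out (adjusted *p* = 0.0231 to 0.123 by edgeR). *Mylk*, the kinase that phosphorylates the myosin light chain and so starts contraction, went the other way. It had 1042, 1559, 1488 and 1332 CPM in SCA1-High-FAPs and 832, 928, 852 and 767 in SCA1-Low-FAPs. Every SCA1-Low-FAPs sample was below every SCA1-High-FAPs sample (log2 fold change -0.68, SE 0.15, adjusted *p* = 0.00935 by edgeR), and *Mylk* was called in 8 of 8 fits with a sample left out.

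**Figure D4:**
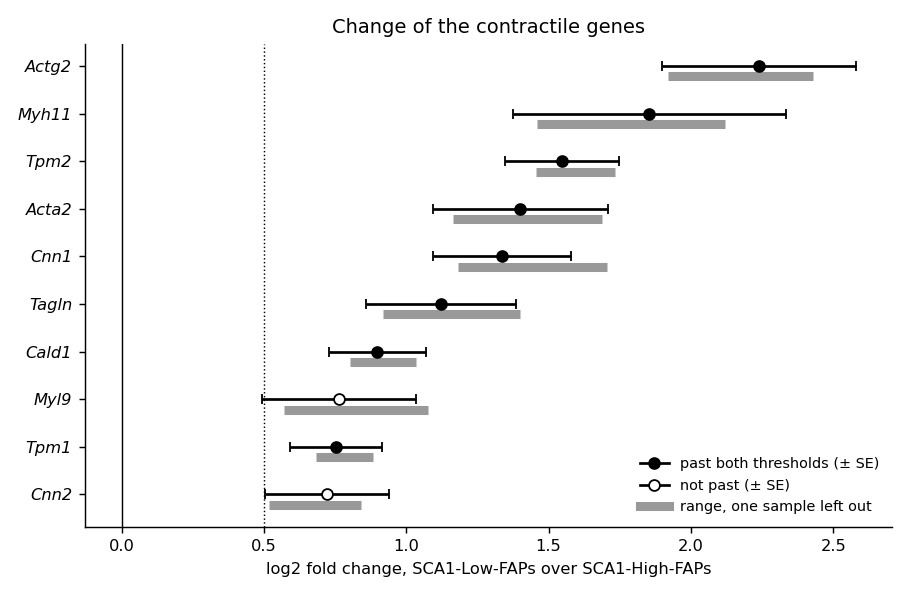
Log2 fold change between the states, positive where SCA1-Low-FAPs were higher, for the 10 contractile genes, with the SE as error bars, filled points for called genes, open points for the others, and a grey bar for the range with each of the 8 samples left out in turn. All points and grey bars lie above 0.5 (dotted line), and *Cnn2* and *Myl9* are the open points.

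Over the 10 genes the order of the samples within a state was often alike. In SCA1-Low-FAPs, replicate 3 came last for 8 genes and replicate 4 did for the other two, *Actg2* and *Cnn2*. Among SCA1-High-FAPs, replicate 2 was the highest for 7 genes and replicate 3 the lowest for 6. Without replicate 3 of SCA1-Low-FAPs, 9 of the 10 genes were called, and without replicate 2 of SCA1-High-FAPs all 10 were, whereas 5 were called without replicate 4 of SCA1-High-FAPs or without replicate 1 of SCA1-Low-FAPs. In the order named, these fits called 1017 of 10330, 675 of 10505, 682 of 10295 and 417 of 10535 tested genes, so the totals varied as well. *Actg2*, *Cnn1*, *Tpm1*, *Tpm2* and *Cald1* were called in 8 of 8 fits with a sample left out.

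With the mean of each state removed, 40 of the 45 pairs of contractile genes were positively correlated across the 8 samples in log2 CPM (median Pearson's *r* = 0.48, range -0.216 to 0.987), as a description of samples that share depth and culture. The share of positive pairs among all tested genes was not computed, so the pattern is not shown to be particular to these genes. *Tpm2* followed the mean of the other 9 most closely (*r* = 0.84) and *Actg2* least (*r* = 0.103). Outside the 10 genes, the pattern most like their mean was that of *Flna*, which encodes filamin A, a crosslinker of actin (*r* = 0.984, Spearman's rho = 0.976, 8 samples). The next were *Ereg*, which encodes an EGF receptor ligand (*r* = 0.979), *Diaph3*, a formin that elongates actin filaments (*r* = 0.968), *Cpe*, a carboxypeptidase (*r* = 0.966), and *C1qtnf7* (*r* = 0.964).

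The group was then set beside related lists. Of the 24 tested genes of stress fibres and focal adhesions, 6 were called by edgeR, all 6 with the higher level in SCA1-Low-FAPs, with a median log2 fold change of 0.46. The largest differences were those of *Csrp1*, a LIM protein of smooth muscle (log2 fold change 1.52, SE 0.25, adjusted *p* = 0.00197 by edgeR), and *Tes*, a LIM protein of focal adhesions (1.42, SE 0.27, adjusted *p* = 0.00342), each called in 8 of 8 fits with a sample left out. The other called genes were *Zyx*, *Actn1*, *Flna* and *Lmod1*, and *Flna* passed in 3 of 8 such fits (adjusted *p* = 0.0107 to 0.105 by edgeR).

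Of the 7 tested genes of SRF and its cofactors, 0 were called by edgeR, 3 had an unadjusted *p*-value under 0.05 (*Mrtfa*, *Elk3* and *Klf4*) and 1, *Klf4*, was called by DESeq2. By edgeR, 2 were called without replicate 2 of SCA1-High-FAPs, *Klf4* and *Elk3* (adjusted *p* = 0.0113 and 0.0327), and 1, *Klf4*, without replicate 3 of SCA1-Low-FAPs (0.00819). *Srf* itself stood at 79.6 to 104 CPM in SCA1-High-FAPs and 80.8 to 93.7 in SCA1-Low-FAPs, with a log2 fold change of -0.12 (SE 0.16, adjusted *p* = 0.731 by edgeR). The coactivators *Mrtfa* and *Mrtfb* had log2 fold changes of 0.66 and -0.20 (SE 0.24 and 0.32, adjusted *p* = 0.103 and 0.793 by edgeR). *Myocd*, the coactivator of cardiac and smooth muscle, had no read in any SCA1-High-FAPs sample and 6, 0, 5 and 4 in SCA1-Low-FAPs, too few to be tested.

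Of the ETS partners of SRF, which compete with these coactivators, *Elk3* had a log2 fold change of 0.75, *Elk1* of 0.15 and *Elk4* of -0.40 (SE 0.30, 0.25 and 0.27, adjusted *p* = 0.153, 0.803 and 0.426 by edgeR). *Klf4*, a factor that represses smooth muscle genes, stood at 81.8 to 206 CPM in SCA1-High-FAPs and 149 to 302 in SCA1-Low-FAPs, with overlap (log2 fold change 0.88, SE 0.27, adjusted *p* = 0.0729 by edgeR and 0.0153 by DESeq2).

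The matrix genes of myofibroblasts were called in both directions. Of 12 tested, 1 was called with more mRNA in SCA1-Low-FAPs, 3 with more in SCA1-High-FAPs and 8 in neither direction, with a median log2 fold change of -0.23. *Timp1*, an inhibitor of matrix metalloproteinases, was the gene higher in SCA1-Low-FAPs, with a log2 fold change of 0.96 (SE 0.17, adjusted *p* = 0.00185 by edgeR). Collagen III, fibronectin and periostin, encoded by *Col3a1*, *Fn1* and *Postn*, were higher in SCA1-High-FAPs, by log2 fold changes of -1.03, -0.64 and -0.58 (SE 0.26, 0.15 and 0.16, adjusted *p* = 0.0294, 0.0165 and 0.0286 by edgeR). The call of *Col3a1* held in 2 of 8 fits with a sample left out (adjusted *p* = 0.00041 to 0.105 by edgeR), that of *Fn1* in 5 (0.00418 to 0.0881) and that of *Postn* in 3 (0.0213 to 0.102), while that of *Timp1* held in all 8.

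**Figure D5:**
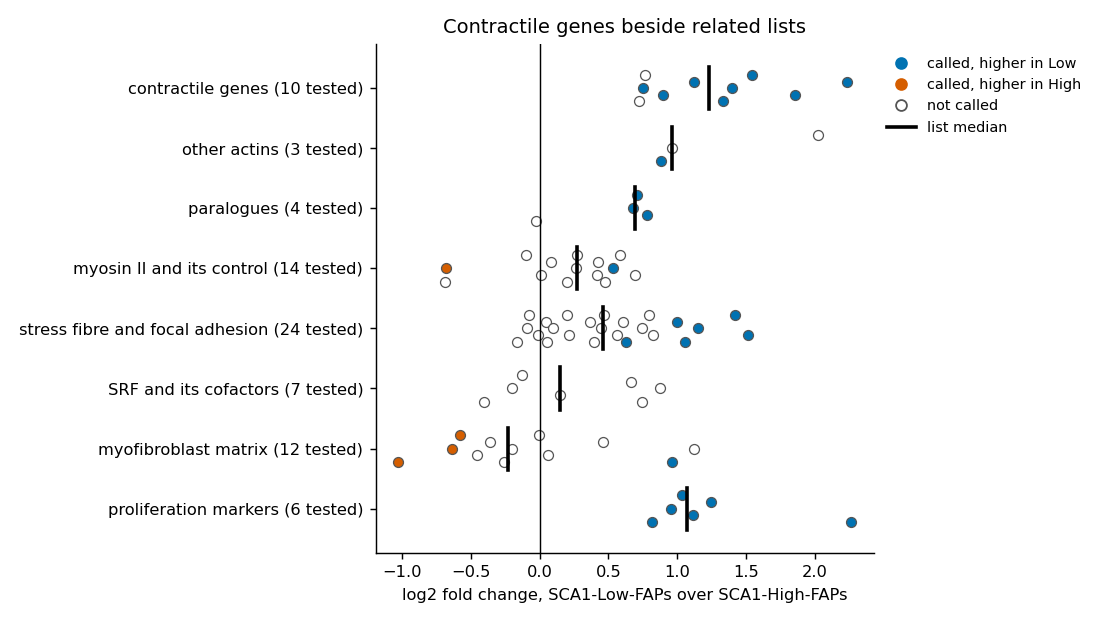
Log2 fold change between the states, positive where SCA1-Low-FAPs were higher, for each tested gene of the contractile group and of 7 other lists, one point per gene, filled blue or orange where called and open otherwise, with a black bar at the list's median. The contractile genes have a median of 1.23 and the proliferation markers of 1.07, whereas the SRF list has no called gene and the matrix list has called genes on both sides of 0.

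Other differences ran alongside these. All 6 proliferation markers were called higher in SCA1-Low-FAPs, in 8 of 8 fits with a sample left out, with a median log2 fold change of 1.07, and their summed level was 508 to 743 CPM in SCA1-High-FAPs and 1037 to 1489 in SCA1-Low-FAPs. Among them were *Aurka*, a kinase of the mitotic spindle (log2 fold change 2.27, SE 0.35, adjusted *p* = 0.00109 by edgeR), *Birc5* (1.25, SE 0.20, adjusted *p* = 0.00117) and *Ccnb1* (1.11, SE 0.24, adjusted *p* = 0.00762). In the paper's growth assay, SCA1-High-FAPs doubled faster and reached confluence earlier. Their share of cells positive for a proliferation protein then fell more rapidly. In vivo, a larger fraction of SCA1-High-FAPs took up a label of new DNA. The marker levels here are RNA at a single time point and do not give a growth rate. The part of proliferation in the contractile differences was not tested. The adipocyte markers summed to more in SCA1-High-FAPs, at 924 to 4473 CPM, than in SCA1-Low-FAPs, at 101 to 589. Of the 3 tested, only *Adipoq*, adiponectin, was called (log2 fold change -4.72, SE 0.95, adjusted *p* = 0.0352 by edgeR), and it passed in 2 of 8 such fits (adjusted *p* = 0.0145 to 0.111), while DESeq2 called 4 of the 5 markers.

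The markers of smooth muscle cells other than the 10 genes were mostly untested or not called. Of 7, 3 were tested and 1 was called, *Lmod1*, leiomodin, which nucleates actin filaments (log2 fold change 1.15, SE 0.32, adjusted *p* = 0.0405 by edgeR). Its call held in 2 of 8 fits with a sample left out (adjusted *p* = 0.00461 to 0.128 by edgeR). The summed level of the 7 was 57.2 to 145 CPM in SCA1-High-FAPs and 111 to 228 in SCA1-Low-FAPs. *Kcnmb1*, a channel subunit of differentiated smooth muscle, had 0 counts in all 8 samples, and desmin, *Des*, had 0 to 5 counts. *Lmod1* and the untested *Ppp1r14a* and *Des* also belong to the lists above, as do *Smtn*, *Synpo2* and *Myocd*.

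The mural cell markers, for pericytes and vascular smooth muscle, were called in both directions. Their summed level was 19.7 to 42.3 CPM in SCA1-High-FAPs and 18.4 to 38.1 in SCA1-Low-FAPs, and 2 of 7 were tested. *Cspg4*, which encodes NG2, was called higher in SCA1-Low-FAPs, with counts of 15, 3, 5 and 14 against 58, 37, 8 and 123 (log2 fold change 2.40, SE 0.67, adjusted *p* = 0.0415 by edgeR). *Notch3* was called higher in SCA1-High-FAPs (log2 fold change -1.54, SE 0.46, adjusted *p* = 0.0487 by edgeR). The call of *Cspg4* held in 2 of 8 fits with a sample left out (adjusted *p* = 0.00141 to 0.126 by edgeR) and that of *Notch3* in 1 (0.0401 to 0.138). *Rgs5*, the commonest pericyte marker, had 0 to 15 counts, and *Higd1b* had 0 in all samples. The part of mural or smooth muscle cells in the contractile differences was not tested.

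The sort and the cell type were checked by their markers. *Pdgfra*, the defining receptor of FAPs, was present in every sample, at 177 to 291 CPM in SCA1-High-FAPs and 157 to 188 in SCA1-Low-FAPs, with a log2 fold change of -0.41 (SE 0.17, adjusted *p* = 0.159 by edgeR). *Ly6a*, which encodes SCA-1, went against the sort after culture, with 492, 789, 645 and 919 CPM in SCA1-High-FAPs and 1100, 1080, 1156 and 1014 in SCA1-Low-FAPs, which differed by a log2 fold change of 0.61 (SE 0.17, adjusted *p* = 0.0341 by edgeR). The names of the states therefore stand for the surface level at sorting, and the call held in 1 of 8 fits with a sample left out (adjusted *p* = 0.0124 to 0.0947 by edgeR). Of the 7 FAP markers tested, *Thy1* was likewise called for SCA1-Low-FAPs (log2 fold change 0.67) and *Dcn*, decorin, for SCA1-High-FAPs (-2.08), with adjusted *p* = 0.0105 and 0.0167 by edgeR. The call of *Thy1* was lost without replicate 1 of SCA1-Low-FAPs (0.0507) and that of *Dcn* without replicate 2 or 4 (adjusted *p* = 0.0504 and 0.0537 by edgeR).

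Other cell types that could be mixed with FAPs left few reads. Of 8 myogenic markers 5 had 0 counts in all samples, among them *Pax7* and *Myod1*, and the list's summed level was 0 to 12.2 CPM. The 6 endothelial markers summed to at most 7.03 CPM and the 3 Schwann cell markers to at most 5.5, and none of the genes in these 3 lists passed the count filter. Of the leucocyte markers, *Ptprc*, which encodes CD45, had 1 read in 1 sample, and only *Lyz2* was tested and called, higher in SCA1-High-FAPs (log2 fold change -1.42, SE 0.34, adjusted *p* = 0.0153 by edgeR), a call lost without replicate 1 of SCA1-High-FAPs (0.0529) or of SCA1-Low-FAPs (0.056). *Csf1r*, a receptor of macrophages, was untested, with 32 reads over the 4 SCA1-High-FAPs samples and 58 over the SCA1-Low-FAPs samples. *Cd68* of the same list, also untested, went the other way, with 27 and 6 reads. The leucocyte markers summed to 25.6 to 46.6 CPM in SCA1-High-FAPs and 12.2 to 19.6 in SCA1-Low-FAPs. Of the tendon markers *Tnmd* passed the count filter, with a log2 fold change of -1.55 that did not pass (SE 0.47, adjusted *p* = 0.053 by edgeR, unadjusted *p*-value under 0.05, called by DESeq2). The other tendon markers had more reads in SCA1-Low-FAPs, namely *Scx* with 0 in all SCA1-High-FAPs samples against 17, 3, 7 and 3, and *Mkx* with 11 in total against 34. DESeq2 called 2 of the 3 tendon markers, as did edgeR without a count filter.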

How the data were processed

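The deposited values were raw read counts per Ensembl gene, 1 file for each of the 8 samples. The authors prepared QuantSeq 3′ mRNA FWD libraries, trimmed the reads, aligned them to mm10 with STAR and counted unique alignments per gene with htseq-count on Ensembl release 93. The strand setting is not given in the sources used here. Summary entries for reads in no gene were kept out of library sizes. Of 31053 gene identifiers, 30934 were matched to a symbol.

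The states were compared with edgeR 4.0.16 (robust quasi-likelihood, TMM, R 4.3.3) after filterByExpr (minimum count 10, total 15), with Benjamini-Hochberg adjustment. SEs are the log2 fold change divided by the root of F. Alternatives were RLE factors, DESeq2 1.42.0, other count filters and thresholds, a replicate block and each sample left out. Of 28 pairs of samples, 0 agreed within sampling noise.

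Named genes were the 10 contractile genes, *Ly6a*, *Pdgfra*, all genes of the SRF list, up to 3 called genes per direction of each other list and the 5 genes most like the contractile mean. Others named for their low counts or as remaining called genes, and *Actg1*, *Acta1*, *Cnn3*, *Smtn* and *Synpo2*, were picked after their values were seen. Members and lists were chosen with earlier results of these data known, and some listed genes are not reported here. Positions are from GENCODE M21 (GRCm38).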

Additional observations from a re-analysis of the deposited data

Results flagged for a closer look

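In 100 groups of 4 samples, made of 47 genes and 3 shares in both states, the highest or the lowest sample was compared with the rest by Dixon's ratio, the gap to the nearest sample divided by the whole range. Values above 0.829 stood out, and chance flags about 1 in 20 groups. All groups that stood out are named here, and their number is near that rate. The groups also share the same 8 samples. Of the contractile genes, *Tagln* (0.931) and *Cald1* (0.937) stood out in SCA1-High-FAPs, in both cases through replicate 2, which was high at 386 and 2121 CPM. Replicate 2 of SCA1-High-FAPs was also the high sample for *Myh9* (0.886), *Lmod1* (0.942) and *Tnmd* (0.905), at 931, 60.6 and 46.1 CPM. In the same state, replicate 4 was low for *Notch3* (0.934) at 9.9 CPM. In SCA1-Low-FAPs, replicate 3 was low for *Tes* (0.896) at 36.2 CPM, the sample that was also the lowest of its state for 8 of the 10 contractile genes.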

How the results depend on the processing

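Each contractile gene kept its direction in every alternative in which it was tested. The number called, 8 of 10, was 9 with RLE factors, 10 with DESeq2, 8 without a count filter (*Acta2* lost, adjusted *p* = 0.0867 by edgeR, and *Cnn2* gained) and 7 of 9 with at least 10 counts in every sample, where *Myh11* was not tested. At an adjusted *p*-value of 0.01 it was 5, and the 782 genes called overall became 307. A log2 fold change beyond 1 left 472 genes overall and 6 contractile genes. DESeq2 called 1065 genes and the fit without a filter 1052. With each sample left out, 410 to 1017 genes and 5 to 10 contractile genes were called. The lowest counts were 410 and 417, without replicate 4 or 1 of SCA1-Low-FAPs, and the highest came without replicate 3. *Mrtfb*, at -0.20 on the log2 scale, ran from -0.38 to 0.17 with each sample left out, turning positive without replicate 3 of SCA1-High-FAPs, and was called in none. The cause was not tested.

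When the replicate number entered the fit as a block, 697 genes and all 10 contractile genes were called, *Cnn2* and *Myl9* with adjusted *p* = 0.0258 and 0.0228 by edgeR, and *Klf4* was called as well. Same-numbered samples were not correlated after removal of the state means (-0.0502 to 0.00673), and 0 of 4 SCA1-High-FAPs samples correlated best with their own number, so the numbers were not taken as pairs. *Actg2* and *Myh11* rest on 16 to 141 and 6 to 73 counts per sample, which limits their precision.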
